A study of Mus musculus with 6 samples.

Results

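The genes that carry out and prepare the membrane merger of muscle cells were followed in C2C12, an established line of mouse myoblasts, which stop dividing and join into multinucleate myotubes when serum is lowered. They were chosen by name and are 8 of the 55804 genes in the deposited count table: the fusogens Mymk and Mymx, the muscle membrane protein gene Tmem182, the ferlin genes Myof, Dysf and Fer1l5, the Rac activator gene Dock1 and the membrane-bending protein gene Bin3. Each had 1 row in the table and each passed the filter on low counts, which kept 14651 genes. RNA was sequenced from 3 libraries of cells with a CRISPR/Cas9 guide RNA to the gene Prr33 (Prr33-gRNA, genotype given as PRR33 knocked down) and from 3 libraries of cells with a control guide RNA (Ctrl-gRNA, genotype given as WT). All cells had been grown in 20% fetal bovine serum and were collected after 3 days in medium with 2% horse serum. The labels name no separate clones or cultures, so the guide and any difference between the derived lines cannot be told apart, and the p-values rest on a spread between libraries that may be technical only.

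Myoblast fusion is a sequence of contact, actin-driven protrusion and membrane merger. Mymk (myomaker) and Mymx (myomixer, a microprotein) act at the last step, in which the lipid layers mix and a fusion pore opens. Ferlins are large tail-anchored proteins with many calcium-binding C2 domains that bring vesicles to the plasma membrane, in fusing myoblasts for myoferlin and in the resealing of damaged muscle fibres for dysferlin. Dock1 and Bin3 belong to the actin and membrane-curvature side of the process.

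Sequencing depth, as total counts, was from 17412383 to 19471762 in Prr33-gRNA and from 17006381 to 19118010 in Ctrl-gRNA. The level of Prr33, which the guide targets, was 43.8 ± 1.82 CPM (CPM, counts relative to the TMM-scaled library total; SD, n = 3) in Prr33-gRNA and 58.6 ± 3.76 CPM (SD, n = 3) in Ctrl-gRNA, a log2 fold change of -0.42. The 6 markers of skeletal muscle that were checked (Des, Myod1, Myog, Myh3, Acta1 and Ckm) were all expressed, with a summed level of 13425.5 to 14132.2 CPM in Prr33-gRNA libraries and 24234.8 to 24868.5 CPM in Ctrl-gRNA libraries. Of these, 5 fell and Ckm, for muscle creatine kinase, rose (log2 fold change 0.24). Myog, which drives muscle differentiation, fell by 1.63 on the log2 scale, and its relative Myod1, a factor that can turn other cells into muscle, fell by 1.59. Of 7 fibroblast markers the 5 that were tested fell, Col1a1 most (log2 fold change -4.26), the sum being 787 to 851 CPM in Prr33-gRNA and 1285 to 1389 CPM in Ctrl-gRNA, with Lum and Tcf21 at 0 counts in every library. The summed markers of macrophages (6 genes) and endothelium (5 genes) were at most 1.55 CPM in Prr33-gRNA libraries and 1.82 CPM in Ctrl-gRNA libraries, with Ptprc, Adgre1 and Emcn at 0 counts. The 5 adipocyte markers summed to 3.86 to 4.37 CPM in Prr33-gRNA and 2.79 to 5.08 CPM in Ctrl-gRNA, with Adipoq, Plin1 and Cidec at 0. The part of the muscle and fibroblast shifts in the results that follow was not tested.

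All 8 genes differed between the groups. Mymk, Mymx, Tmem182, Dysf, Fer1l5 and Bin3 fell, and Myof and Dock1 rose (quasi-likelihood test of edgeR, Benjamini-Hochberg adjusted p below 0.05 over all tested genes). The comparison as a whole was wide: 52.1% of all tested genes were called, 26.6% as lower and 25.5% as higher. With libraries scaled by size alone the calls over all genes split into 4999 higher and 3103 lower, against 3740 higher and 3899 lower with TMM scaling, while the 8 genes had the same directions and calls. With a change of at least 1 on the log2 scale also required, 2 of the 8 were lower (Mymx and Bin3) and 0 higher, where 7.96% of all tested genes were lower and 2.91% higher. Bin3 lies on chromosome 14, where 361 of 400 tested coding genes (90.2%) were called lower. The median log2 fold change of the 8 was -0.58, and that of all tested genes was -0.0023. Libraries of the groups did not overlap for 7 of the 8, Fer1l5 being the exception, where 57.9% of all tested genes showed no overlap. In bulk RNA, fewer cells that express a gene and less RNA per cell cannot be told apart.

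**Figure D1:**
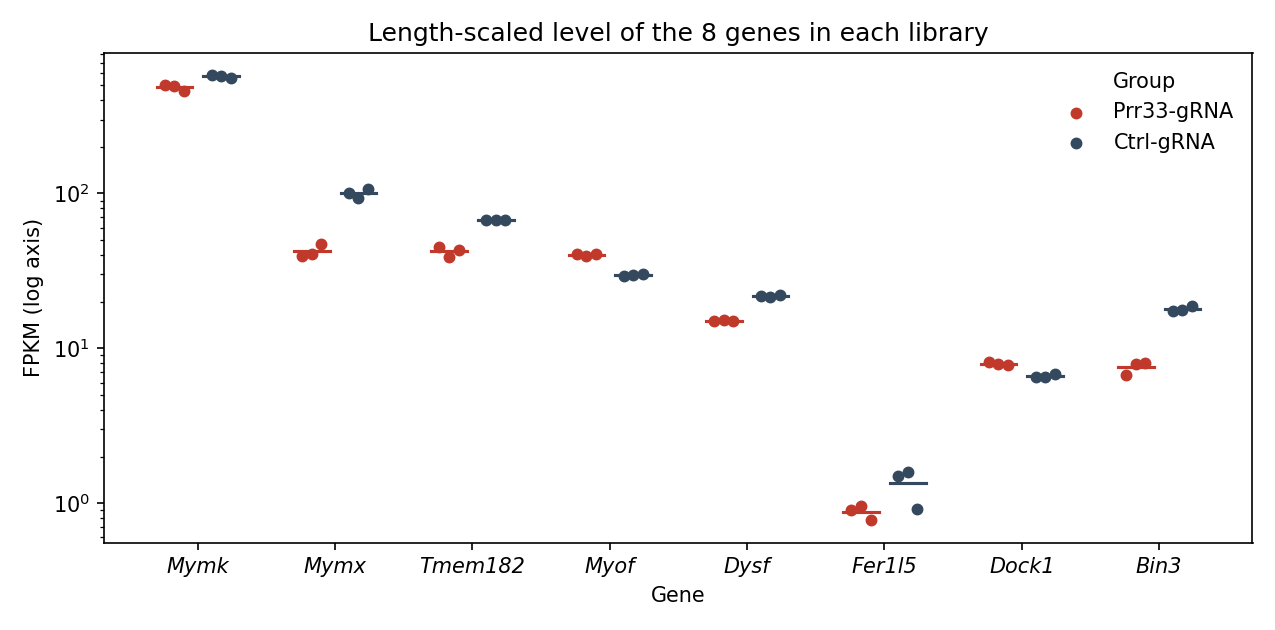
Deposited FPKM (level per gene length and library size, log axis) of each gene in the 3 Prr33-gRNA libraries (red, left) and the 3 Ctrl-gRNA libraries (dark, right), with bars at the group means. Mymk stands above the other genes in both groups and Fer1l5 below them, and Fer1l5 is the gene whose groups overlap.

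Levels were compared between genes on the deposited FPKM scale, which divides by gene length. That length equals all exonic bases of a gene over its annotated transcripts (12603 over 12 transcripts for Myof, 2716 over 1 for Tmem182). The order between genes depends on these lengths, and which transcripts were present was not tested. In Prr33-gRNA the order was Mymk (486 ± 22.6), Mymx (42.6 ± 4.15), Tmem182 (42.3 ± 3.11), Myof (40.1 ± 0.640), Dysf (15.03 ± 0.121), Dock1 (7.96 ± 0.159), Bin3 (7.55 ± 0.740) and Fer1l5 (0.878 ± 0.0937; FPKM, mean ± SD, n = 3). In Ctrl-gRNA the order was Mymk (570.2 ± 13.9), Mymx (100.1 ± 6.84), Tmem182 (67.2 ± 0.257), Myof (29.7 ± 0.317), Dysf (21.8 ± 0.348), Bin3 (17.9 ± 0.849), Dock1 (6.63 ± 0.199) and Fer1l5 (1.34 ± 0.372; FPKM, mean ± SD, n = 3). Every neighbouring pair in the Ctrl-gRNA order was separated with no overlap of libraries. In Prr33-gRNA the libraries of Mymx, Tmem182 and Myof overlapped, as did those of Dock1 and Bin3, so those neighbours did not differ beyond their spread. Bin3 was above Dock1 in every Ctrl-gRNA library.

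The fusogens fell to different extents. Mymk, on chromosome 2 (27061636 to 27072179, minus strand, mm10), had 763.0, 745 and 700.03 CPM in Prr33-gRNA libraries, against 885, 879 and 841 CPM in Ctrl-gRNA libraries. The groups were close but did not overlap, with a log2 fold change of -0.24 (SE 0.04; edgeR adjusted p = 9.85e-06), or -0.15 with libraries scaled by size alone. That size of change was common in these data, since 54.8% of all tested genes had a larger absolute log2 fold change. Mymx is a compact gene on chromosome 17 (45600971 to 45602102, minus strand) with 1027 exonic bases. It had 40.7, 42.1 and 48.9 CPM in Prr33-gRNA libraries, against 104.8, 96.3 and 109.9 CPM in Ctrl-gRNA libraries. Every Prr33-gRNA library was far below every Ctrl-gRNA library, giving a log2 fold change of -1.24 (SE 0.07; edgeR adjusted p = 1.42e-16). A lower log2 fold change was found for 6.11% of all tested genes.

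The balance between the fusogens restates the changes of Mymx and Mymk within each library, on a scale that does not depend on how libraries are normalised. The ratio of Mymx to Mymk in FPKM was 0.0784, 0.0830 and 0.103 in Prr33-gRNA libraries, and 0.174, 0.161 and 0.192 in Ctrl-gRNA libraries. The groups did not overlap, and the means were 0.0881 ± 0.0129 in Prr33-gRNA and 0.176 ± 0.0156 in Ctrl-gRNA (SD, n = 3), a difference of -1.004 on the log2 scale. An exact permutation test over the libraries (two-sided, 20 splits) gave p = 0.1, the smallest p that 3 against 3 libraries can give.

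Tmem182 encodes a muscle membrane protein that has been reported, in chicken and mouse, to restrain myoblast fusion through integrin beta 1. It lies on chromosome 1 (40805601 to 40856887, plus strand). Its level was 122, 106 and 118 CPM in Prr33-gRNA libraries, against 184, 183 and 184 CPM in Ctrl-gRNA libraries. The Ctrl-gRNA libraries were nearly identical, the Prr33-gRNA libraries were spread more widely below them, with a log2 fold change of -0.67 (SE 0.05; edgeR adjusted p = 1.74e-13). Itgb1, for integrin beta 1, averaged 1743 ± 27.5 CPM in Prr33-gRNA and 1695 ± 36.2 CPM in Ctrl-gRNA (SD, n = 3) and did not pass (log2 fold change 0.04, 95% interval -0.04 to 0.12; edgeR adjusted p = 0.402). With libraries scaled by size alone it was called higher, at 0.13.

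The ferlins moved in opposite directions. Myof, for myoferlin, lies on chromosome 19 (37899036 to 38043577, minus strand) and had 512, 497 and 512 CPM in Prr33-gRNA libraries, against 375, 375 and 380.1 CPM in Ctrl-gRNA libraries. All Prr33-gRNA libraries were higher, by 0.43 on the log2 scale (SE 0.04; edgeR adjusted p = 5.01e-11). Dysf, for dysferlin, lies on chromosome 6 (84008590 to 84211060, plus strand) and had 125, 126 and 125 CPM in Prr33-gRNA libraries, against 183, 179.7 and 185 CPM in Ctrl-gRNA libraries. All Prr33-gRNA libraries were lower and close to one another, with a log2 fold change of -0.54 (SE 0.05; edgeR adjusted p = 3.71e-12). In GENCODE M21, 457 of the 8328 exonic bases of Dysf are shared with opposite-strand genes, Gm15475 and Gm33024, which took 52 and 3 counts over the Prr33-gRNA libraries and 122 and 9 over the Ctrl-gRNA libraries. Dysf itself took 7090 counts over the Prr33-gRNA libraries and 9459 over the Ctrl-gRNA libraries. Without a stated strand setting, reads of overlapping genes cannot be told apart.

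Fer1l5, a ferlin described in mouse myoblasts as a partner of Ehd proteins, was weakly expressed. It had 5.76, 6.09 and 4.95 CPM in Prr33-gRNA libraries (106, 110 and 99 counts), against 9.68, 10.3 and 5.84 CPM in Ctrl-gRNA libraries (179, 169 and 98 counts). Ctrl-gRNA replicate 3 lay within the Prr33-gRNA range, and the other Ctrl-gRNA libraries were above it. The log2 fold change was -0.62 (SE 0.18, 95% interval -0.98 to -0.26; edgeR adjusted p = 0.00414), and it was -0.83 without Ctrl-gRNA replicate 3. Leaving out Ctrl-gRNA replicate 2 gave -0.47 (adjusted p = 0.0499). The call was lost with limma on log2(FPKM + 1) (-0.31, adjusted p = 0.0698) and on log2(FPKM + 0.1) (-0.53, adjusted p = 0.0774). Fer1l5 is on chromosome 1 (36372291 to 36422110, plus strand) and shares 103 of its 6356 exonic bases with the opposite-strand gene Lman2l, which itself fell (log2 fold change -0.58). The remaining ferlin genes were near or at 0: Otof had 0 counts in every library, which at 3 counts of a library allows up to 0.150 to 0.166 CPM in Prr33-gRNA and 0.162 to 0.182 CPM in Ctrl-gRNA (counting error only). Whether the 0 of Otof is a matter of the counting was not tested. Fer1l4 had 1 count over the Prr33-gRNA libraries and 3 over the Ctrl-gRNA libraries, and Fer1l6 had 7 and 5.

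On the FPKM scale myoferlin and dysferlin made up nearly all ferlin RNA, and their proportions differed between the groups. The size of each share depends on the gene lengths used, which were the same in both groups. Over the 6 ferlin genes, Myof took 71.6% ± 0.567 of the summed FPKM in Prr33-gRNA and 56.2% ± 0.408 in Ctrl-gRNA (SD, n = 3), while Dysf took 26.8% ± 0.414 and 41.2% ± 0.459 in the same groups. The summed FPKM itself was 56.0 ± 0.507 in Prr33-gRNA and 52.8 ± 0.261 in Ctrl-gRNA (SD, n = 3). The ratio of Dysf to Myof, like that of the fusogens, restates changes already given. It was 0.371, 0.385 and 0.370 in Prr33-gRNA libraries, and 0.741, 0.725 and 0.736 in Ctrl-gRNA libraries. These libraries fell into separate, narrow ranges, the difference was -0.97 on the log2 scale, and the exact two-sided permutation test again gave its smallest p of 0.1.

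**Figure D2:**
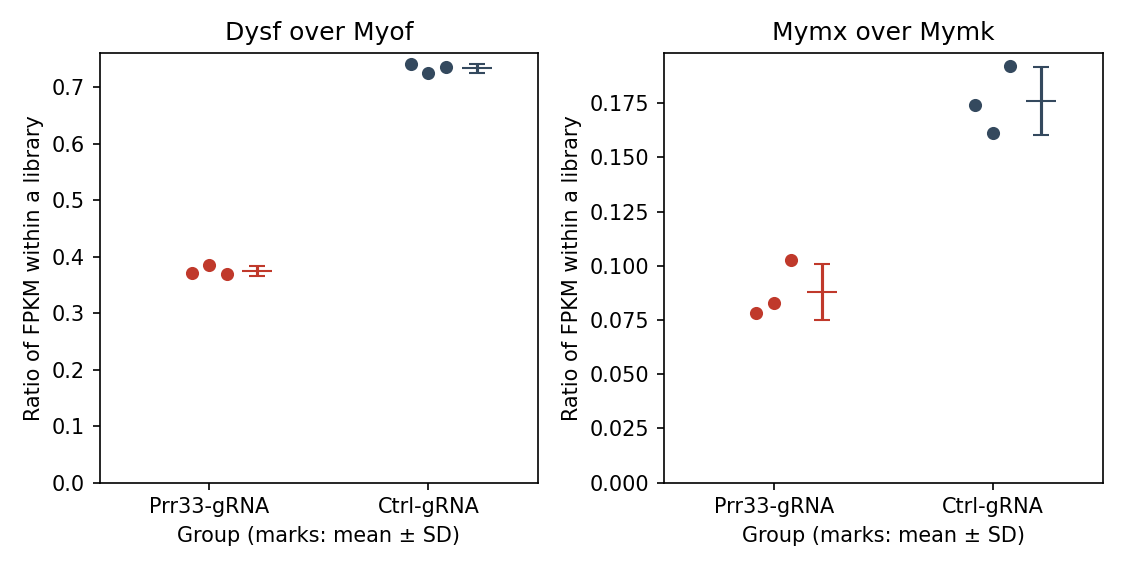
Ratio of FPKM within each library for Dysf over Myof (left) and Mymx over Mymk (right), with points for the 3 Prr33-gRNA and 3 Ctrl-gRNA libraries and marks for the mean ± SD. In both panels the Prr33-gRNA libraries lie below all Ctrl-gRNA libraries.

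Of the 8 genes, 5 had a promoter window, the 250 bases before the annotated start, in the set of RefSeq (GRCm38.p6) windows used here. That set held none for Mymk, Mymx and Bin3, which are named only. The windows of Tmem182, Dysf (the upstream of its 2 starts) and Myof are shown as examples of genes that fell (Tmem182 and Dysf) and of one that rose (Myof), and those of Fer1l5, which also fell, and Dock1 are described in words. They are chr1:40805351-40805600 on the plus strand, chr6:84008348-84008597 on the plus strand and chr19:38043578-38043827 on the minus strand, and capitals mark the E-box CANNTG, the sequence bound by MyoD-type factors.
Tmem182: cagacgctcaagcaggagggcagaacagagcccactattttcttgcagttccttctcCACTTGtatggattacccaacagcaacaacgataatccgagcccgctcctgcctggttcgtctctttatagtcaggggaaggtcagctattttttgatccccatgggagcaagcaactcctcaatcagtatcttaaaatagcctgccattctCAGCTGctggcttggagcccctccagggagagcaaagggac
Dysf: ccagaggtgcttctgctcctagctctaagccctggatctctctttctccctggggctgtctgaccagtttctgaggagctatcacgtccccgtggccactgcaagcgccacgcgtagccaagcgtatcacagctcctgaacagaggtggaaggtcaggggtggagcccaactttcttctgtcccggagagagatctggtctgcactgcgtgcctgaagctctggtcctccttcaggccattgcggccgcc
Myof: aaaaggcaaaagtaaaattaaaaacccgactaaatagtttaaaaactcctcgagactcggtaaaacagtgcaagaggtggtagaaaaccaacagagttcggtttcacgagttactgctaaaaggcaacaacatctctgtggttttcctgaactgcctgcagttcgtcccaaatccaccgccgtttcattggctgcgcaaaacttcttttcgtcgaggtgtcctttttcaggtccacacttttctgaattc
The Tmem182 window held 2 E-boxes, CACTTG at 193 bases and CAGCTG at 41 bases before the start, and 1 TATAAA match (as TTTATA, on the other strand) at 129 bases. Neither Dysf window nor the Myof window held an E-box. The Dock1 window had 1 E-box (CACATG at 36 bases), and the Fer1l5 window had 1 (CACTTG at 92 bases) and 1 CATTCC match, the MCAT element bound by TEAD factors, at 209 bases. Over 32851 windows of the same length, 66.2% held CANNTG on either strand, 31.8% held at least 2, 13.001% held CAGCTG (which is also an E-box), 12.6% held CATTCC and 12.4% held TATAAA. The MEF2 core motif, found in 3.20% of all windows, was in none of these 5 genes' windows. GC content of the printed windows was 51.2% for Tmem182, 60.0% for Dysf and 42.8% for Myof, and it was 71.6% for Dock1.

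On the actin and curvature side, Dock1 rose and Bin3 fell. Dock1 encodes a guanine nucleotide exchange factor that activates Rac and is needed for myoblast fusion in mouse and zebrafish. It lies on chromosome 7 (134670654 to 135173639, plus strand) and ends 7.32 Mb before Prr33. Its level was 75.9, 74.4 and 73.2 CPM in Prr33-gRNA libraries, against 61.2, 61.4 and 64.3 CPM in Ctrl-gRNA libraries. The groups did not overlap, with a log2 fold change of 0.26 (SE 0.06; edgeR adjusted p = 2.23e-04), and 51.8% of all tested genes had a larger absolute change.

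Bin3 encodes an N-BAR protein that has been linked to Rac and Cdc42 activity in mouse myotube formation. It lies on chromosome 14 (70100105 to 70138206, plus strand) and had 14.7, 17.4 and 17.7 CPM in Prr33-gRNA libraries, against 38.2, 38.7 and 41.4 CPM in Ctrl-gRNA libraries. Every Prr33-gRNA library was far below every Ctrl-gRNA library, by -1.25 as a log2 fold change (SE 0.09; edgeR adjusted p = 1.47e-14). Protein-coding genes of chromosome 14 were lower as a class, 361 of 400 tested (90.2%), their log2 fold changes having a median of -0.90 (quartiles -1.15 and -0.66), while those on other chromosomes had a median of 0.02. Of these 400 genes 83 (20.8%) fell further than Bin3. All 19 other tested coding genes within 500 kb of Bin3 fell, with a median of -0.996. One of them, the opposite-strand gene Ccar2 (log2 fold change -1.17), shares 43 of the 2187 exonic bases of Bin3. Whether Bin3 changed apart from its chromosome was not tested.

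**Figure D3:**
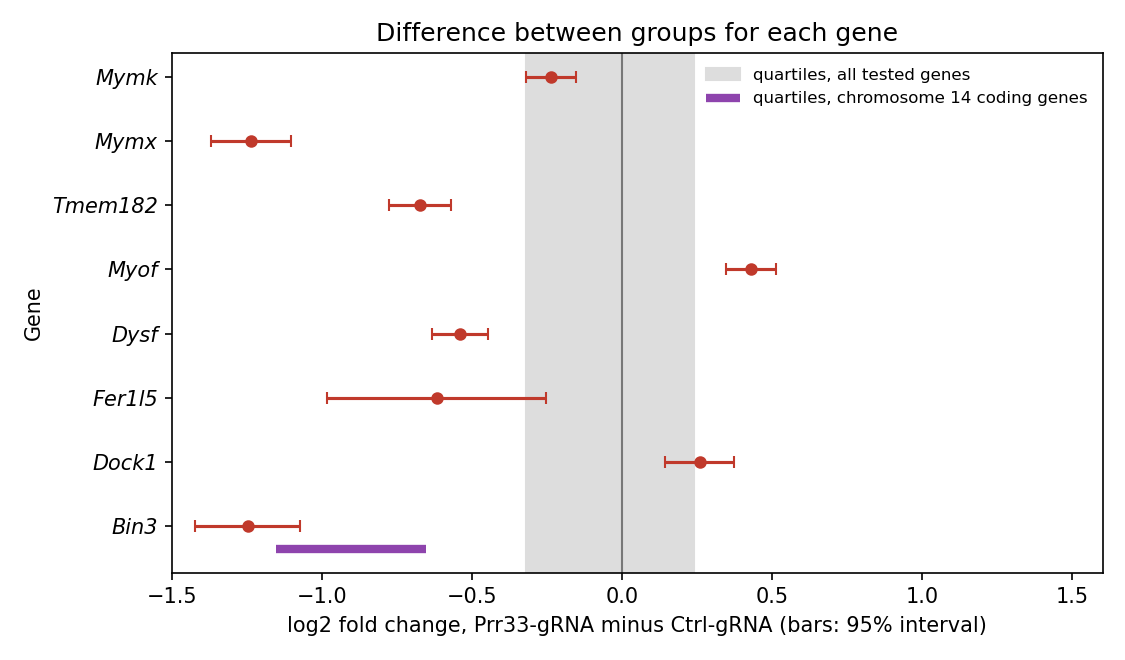
Log2 fold change (Prr33-gRNA minus Ctrl-gRNA) of each gene with its 95% interval from edgeR. The grey band spans the quartiles of all 14651 tested genes and the purple bar those of the 400 coding genes of chromosome 14, where Bin3 lies: Mymx and Bin3 have the deepest falls of the 8, and Mymk has its point inside the grey band.

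Around the other genes the chromosomal neighbours were mixed, with Fer1l5 as an exception. Within 500 kb of Fer1l5, 13 of 16 tested coding genes were called lower and 1 higher (median -0.50, beside -0.62 for Fer1l5 itself). Within 500 kb of Mymk 7 of 20 fell and 4 rose, around Mymx 4 of 10 fell and 2 rose, and around Dysf 4 of 10 fell and 1 rose. Medians there were -0.13, 0.04 and -0.25. Myof had 8 such neighbours, of which 4 rose and 1 fell, Tmem182 had 3, of which 2 rose, and Dock1 had 2, of which 1 fell. Over all tested genes 26.6% were called lower and 25.5% higher, with a median of -0.0023. The median of the neighbours of Bin3 was -0.996. Whether chromosomal position has a part in the change of any of the 8 genes was not tested.

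**Figure D4:**
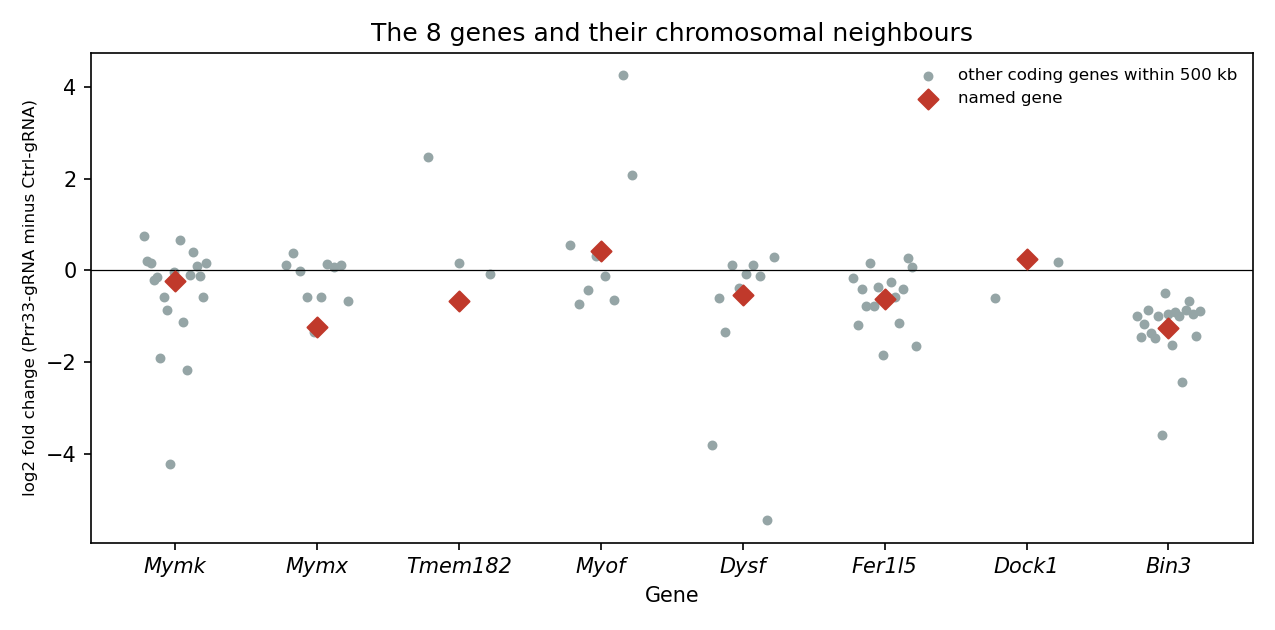
Log2 fold change (Prr33-gRNA minus Ctrl-gRNA) of each named gene (red diamonds) and of the other tested coding genes within 500 kb of it (grey points). All 19 neighbours of Bin3 and 13 of the 16 neighbours of Fer1l5 were called lower, and the neighbours of the other genes lie on both sides of 0.

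Genes of related pathways were called in both directions. Over 5 lists, the remaining ferlins included, 65 of 77 genes were tested, 23 rose and 17 fell, and the median was 0.05 on the log2 scale. Over all 14651 tested genes 25.5% were called higher and 26.6% lower, which is the background for each list below. Whether any list differs from that background was not tested. With libraries scaled by size alone 33 rose and 13 fell, where all genes gave 4999 higher and 3103 lower calls.

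Among 17 tested genes for membrane repair and for partners of dysferlin and myoferlin, 6 fell and 3 rose, with a median of -0.01. Cav3, the muscle caveolin that binds dysferlin, fell to 48.2 ± 4.95 CPM in Prr33-gRNA, against 120.6 ± 5.57 CPM in Ctrl-gRNA (SD, n = 3; log2 fold change -1.32). Trim72, the repair protein MG53, fell to 194 ± 12.9 CPM in Prr33-gRNA, against 282 ± 16.8 CPM in Ctrl-gRNA (-0.54), close to the fall of Dysf itself. Ehd2, for a vesicle protein that binds myoferlin, fell by 0.44, opposite in sign to Myof. Anxa1, for an annexin that binds membranes in the presence of calcium, rose to 447 ± 10.5 CPM in Prr33-gRNA, against 240 ± 14.3 CPM in Ctrl-gRNA (0.90). Ehd1 is listed at 0 counts in every library. Whether this is a matter of the counting was not tested, so no level is drawn from it. The same was not tested for other genes at 0 counts, Otof, Adgrb1, Adgrb3, Lum and Tcf21 among them. With libraries scaled by size alone 6 genes of this list rose in place of 3.

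Of 15 tested genes of the Dock1 and Rac pathway 6 rose and 3 fell, with a median of 0.12. The Rac effector kinase genes Pak1 and Pak2 rose (log2 fold changes of 0.48 and 0.39), and Dock4, a relative of Dock1, rose to 18.0 ± 1.73 CPM in Prr33-gRNA, against 11.01 ± 0.261 CPM in Ctrl-gRNA (0.71, or 0.27 on the log2(FPKM + 1) scale). Trio, a guanine nucleotide exchange factor that activates Rac, fell to 428 ± 16.2 CPM in Prr33-gRNA, against 562 ± 15.7 CPM in Ctrl-gRNA (-0.39). The receptor genes Adgrb1 and Adgrb3, named after their values were seen and described in mouse as upstream of Elmo and Dock1 in fusing myoblasts, had 0 counts in every library.

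The BAR and membrane-bending list, which holds the relatives of Bin3, split evenly, with 4 of 12 tested genes higher, 4 lower and a median of 0.09. Arhgap10 fell to 28.3 ± 1.01 CPM in Prr33-gRNA, against 71.0 ± 1.58 CPM in Ctrl-gRNA (log2 fold change -1.32), whereas Arhgap42, of the same protein family, rose to 75.3 ± 2.65 CPM in Prr33-gRNA, against 40.8 ± 2.17 CPM in Ctrl-gRNA (0.89). Dnm3, for a dynamin, rose by 0.91 (0.24 on the log2(FPKM + 1) scale), and Trip10, for an F-BAR protein, fell by 0.34. The number that rose was 2 without Prr33-gRNA replicate 1, without Ctrl-gRNA replicate 2 and with chromosome 14 left out, and the number that fell was 2 with libraries scaled by size alone.

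Of 21 tested genes for branched actin assembly by Arp2/3 and the WAVE complex 10 rose and 4 fell, with a median of 0.11. Cyfip2, for a WAVE complex subunit, rose to 26.8 ± 1.29 CPM in Prr33-gRNA, against 10.8 ± 0.472 CPM in Ctrl-gRNA (log2 fold change 1.31), and Abi2 and Actr2 rose by 0.45 and 0.33. Nckap1l, the form of a WAVE subunit known from blood cells, fell to 2.37 ± 0.201 CPM in Prr33-gRNA, against 7.29 ± 1.32 CPM in Ctrl-gRNA (-1.61, or -0.66 on the log2(FPKM + 1) scale). Falls beyond -1 in these lists were those of Cav3, Arhgap10 and Nckap1l.

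**Figure D5:**
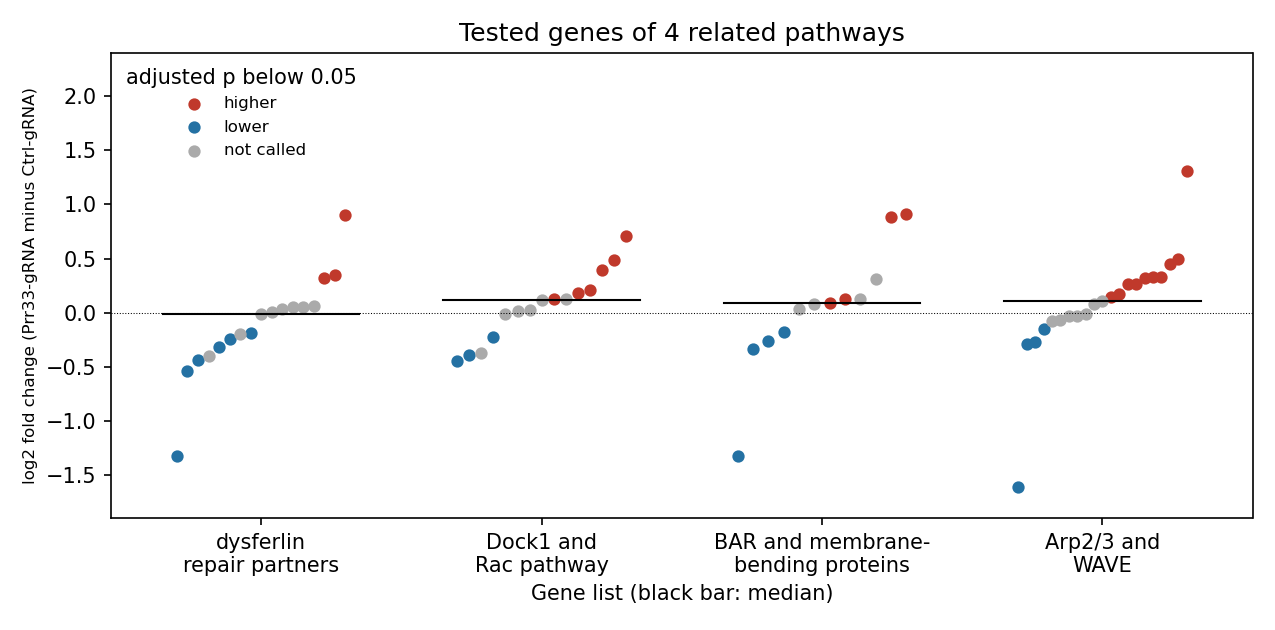
Log2 fold change (Prr33-gRNA minus Ctrl-gRNA) of the tested genes in 4 lists of related genes, coloured by the edgeR call at an adjusted p of 0.05, with black bars at the list medians. Higher and lower calls occur in each list, and the medians run from -0.01 to 0.12. Over all tested genes 25.5% were called higher and 26.6% lower.

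Genes with the most similar profiles were looked up by Euclidean distance of centred log2 CPM over the 6 libraries, among 10134 other coding genes averaging at least 5 CPM. This distance rests largely on the difference between the groups, so it finds genes with nearly the same log2 fold change. Examples are Npepps (0.425) for Myof (0.428) and Gusb (0.255) for Dock1 (0.258). Shared regulation was not tested. Epn1 was among the 2 nearest to Mymk (distance of 0.0361 log2 units), and the nearest to Mymx were Jade2 and Ccdc162 (0.151 and 0.179). Tmem182 was nearest to Kpna3 and Slc4a8, Dysf to Nav3 and E2f2, Myof to Npepps and Nus1, and Dock1 to Gusb and Srp9, at distances from 0.0296 to 0.0791. Bin3 was nearest to Rnaseh2b and Shox2 (0.148 and 0.163), and Fer1l5 to Rps2 and Sart1 (0.221 and 0.317). The 8 genes were not among these nearest genes of one another.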

How the data were processed

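RNA-seq libraries of C2C12 cells (3 Prr33-gRNA, 3 Ctrl-gRNA) were made from TRIzol-extracted total RNA with a NEBNext Ultra kit, per the labels' protocols. The authors deposited raw counts per gene and, separately, FPKM per gene. The submitters' processing notes name the build mm10 and the tools featureCounts 1.5.0-p3, HISAT2 2.0.5 and CASAVA; strand setting and annotation release are not given in the sources used here. For the 8 genes each FPKM value is the count over gene length and 1 constant per library, so FPKM is no separate check on scaling.

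Here counts were fitted with edgeR 4.0.16 (filterByExpr, TMM, robust quasi-likelihood F test) in R 4.3.3, with Benjamini-Hochberg adjustment over 14651 genes at 0.05, and the test was checked on simulated data. The simulated counts followed the model that the test assumes, with few genes changed. That check therefore does not cover scaling or the spread between cultures. SE is the absolute log2 fold change over the square root of F. Intervals are 95%. Coordinates are those of the table, which equal GENCODE M21 for the 8 genes. Alternatives used limma 3.58.1, DESeq2 1.42.0 and other scalings, filters and subsets of libraries. Pairs of libraries within a group gave a chi-square per gene of 2.76 to 5.32, beyond counting noise, and each library counted as 1 replicate.

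The genes and lists were chosen with earlier results of these data known. Named from each list were the 4 tested genes with the lowest adjusted p, unless said otherwise; overlapping and neighbouring genes are given by position. One gene with a similar profile is not reported here. Arhgap26 has 2 rows in the table, of which the one with more counts was used. Figures were drawn with matplotlib 3.10.9.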

Additional observations from a re-analysis of the deposited data

How the results depend on the processing

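Each of the 8 genes kept its direction in every alternative fit in which it was tested, and 133 alternative values kept the side of the 0.05 threshold while 2 did not. These were Fer1l5 with limma on log2(FPKM + 1) (-0.31, adjusted p = 0.0698) and on log2(FPKM + 0.1) (-0.53, adjusted p = 0.0774). Leaving out single libraries gave Mymk -0.26 to -0.20, Mymx -1.32 to -1.18, Tmem182 -0.72 to -0.61, Myof 0.42 to 0.44, Dysf -0.55 to -0.53, Fer1l5 -0.83 to -0.47, Dock1 0.25 to 0.28 and Bin3 -1.29 to -1.17. Requiring a change of 1 or more on the log2 scale left 0 of the 8 genes higher and 2 lower (Mymx and Bin3), because it drops smaller changes, where 2.91% of all tested genes were higher and 7.96% lower. Bin3 lies on chromosome 14, whose coding genes were lower as a class, and could not be tested with that chromosome left out. The log2 difference in the ratio of Dysf to Myof was -0.93 with a pseudocount of 1 FPKM, which compresses ratios, and -0.99 to -0.96 when single libraries were left out; that of Mymx to Mymk was -1.12 to -0.93. Calls over all genes were 2920 to 4999 higher and 3103 to 3978 lower. Same-numbered libraries showed little shared deviation (correlations of -0.04, 0.01 and 0.15), and 2 of 6 libraries correlated best with their own number. So few libraries cannot settle whether the numbers pair them, and the main fit used no pairing. Adding a replicate block gave 3811 higher and 3975 lower genes, and the 8 genes had 2 higher and 6 lower calls, as without it. Fer1l5, with 98 to 179 counts per library, is the gene most limited by depth.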
